A study of Rattus norvegicus with 12 samples.

Results

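Lif, the gene of leukemia inhibitory factor, was followed together with the genes of related cytokines, their receptors and the signalling genes behind them in primary rat midbrain astrocytes exposed to PT109B. The genes were chosen by symbol, as Lif, Il6, Il11, Clcf1, Ctf1, Lifr, Il6st, Osmr, Stat3 and Socs3. Of these 10 genes, 8 were among the 9721 genes of the expression table, and Ctf1 and Stat3 are not analysed here. All 8 passed the filter on low counts.

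The cells were wild-type astrocytes of newborn Sprague-Dawley rats, kept in medium with serum, and PT109B is a compound given under a code name only. Each of 4 groups held 3 RNA libraries: untreated control cells (0 h) and cells exposed to 10 µM PT109B for 1.5, 3 or 6 h. The series comes from work on turning astrocytes into dopaminergic neurons, and each time was compared with control and with the other times. Whether replicates were separate cultures or animals is not in the labels, so the p-values below cover the spread between libraries, and this spread may be technical.

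The cytokines of the interleukin 6 family signal through receptor complexes that contain gp130, the product of Il6st. Lif binds LIFR, which pairs with gp130, and the complex activates JAK kinases and the transcription factor STAT3. STAT3 in turn switches on Socs3, whose protein binds gp130 and limits the signal. In the brain this family is known for promoting the formation of astrocytes and for its part in the reaction of astrocytes to injury.

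Total counts ran from 9368972 to 12498050 per library. In each treated group 1 library stood apart from the other pair, namely replicate 3 at 1.5 h, replicate 3 at 3 h and replicate 1 at 6 h. Across genes, these libraries correlated with the rest of their group at r of 0.897 to 0.945, against 0.990 to 0.991 within the other pairs, and all 3 were closer to the controls than the other libraries of their time were. All 10 astrocyte markers in the table, of 13 looked for, were detected in every library, at a summed level of 6394 to 12416 CPM, counts relative to the scaled library size. All 17 microglia markers were detected as well, at a summed 376 and 380 CPM in replicates 1 and 2 at 1.5 h and at 3018 to 3805 CPM in the other 10 libraries. The 10 fibroblast and meningeal markers summed to 8793 to 13147 CPM in the 6 treated libraries that did not stand apart, against 4578 to 6109 CPM in the 3 that did and in controls. The 13 mitosis genes summed to 73.5 to 96.3 CPM in the alike pairs at 3 and 6 h, to 926 and 890 CPM in the libraries standing apart there, and to 1161 to 1642 CPM at 1.5 h and in controls. Endothelial markers, 6 of 8 in the table, summed to 35.0 to 72.4 CPM. Neuron markers, 6 of 8, summed to 460 to 748 CPM in the treated libraries that did not stand apart and to 268 to 331 CPM in the rest, and oligodendrocyte lineage markers, 10 of 11, to 946 to 1252 CPM in those same 6 libraries and 731 to 851 CPM in the rest. The part of these differences in the results below was not tested, and in bulk RNA fewer cells of a type and less RNA per cell cannot be told apart.

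The upstream sequences of Il6 and Il11 are shown because transcripts of both ligands rose under PT109B. In addition, the transcript start that defines the RefSeq promoter window of each of these genes (build GRCr8) is the annotated gene start. No such window was found for Lif or Clcf1. Each sequence is the 170 bases before the start, read 5′ to 3′ on the gene's strand. Capitals mark, in Il6, a cAMP response element (CRE, TGACGTCA) and matches to the NF-kB pattern (GGG, any 5 bases, CC) on either strand, 2 of which overlap. In Il11 they mark a match to the AP-1 pattern TGANTCA, the kind of site that Fos and Jun proteins bind. Matches to the looser CArG pattern are not marked.
Il6, chr4:5894576-5894745, minus strand: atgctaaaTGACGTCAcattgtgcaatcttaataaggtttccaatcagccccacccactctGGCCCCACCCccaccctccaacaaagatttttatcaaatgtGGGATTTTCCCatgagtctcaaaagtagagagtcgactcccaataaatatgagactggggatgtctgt
Il11, chr1:78098452-78098621, plus strand: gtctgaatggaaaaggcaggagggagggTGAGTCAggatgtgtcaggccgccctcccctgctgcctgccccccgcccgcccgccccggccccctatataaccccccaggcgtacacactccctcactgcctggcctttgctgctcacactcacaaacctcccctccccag

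Among all 33469 promoter windows, from 250 bases before to 50 bases after a start, the CRE letters were found in 1.83%, the AP-1 pattern in 7.33% and the NF-kB pattern in 47.3%, on either strand. The CRE of Il6 began 162 bases before the start and the AP-1 match of Il11 began 142 bases before it. The STAT pattern TTCNNNGAA, present in 8.87% of all windows, was found in none of the 6 windows of genes in the table. For Socs3, Il6st and Lifr the transcript start that defines the window is 1207, 11360 and 11602 bases from the annotated gene start. The bases before the annotated start of these genes were therefore not searched. The Osmr window also held an AP-1 match, 33 bases before the transcript start that defines the window, which is 241 bases from the annotated gene start. The E-box letters CACGTG (6.42% of windows) and the Egr letters GCGTGGGCG (0.544%) were absent from these 6 windows. The CArG pattern, written loosely as CC, any 6 bases and GG, was in 71.5% of all windows and in all 6. The NF-kB pattern was in all 6 as well, in Il11 only after the start. These are matches of letters and not sites shown to be bound.

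Transcripts of the 4 ligands rose with PT109B, and Lif had the largest fold change of the 8 genes at each time. Lif was 12.1 to 22.1 times the control mean in the 9 treated libraries. Il11 also rose at every time, Clcf1 and Il6 were called at 3 and 6 h, and the receptor genes Il6st and Osmr and the feedback gene Socs3 were not called at any time. A gene was called when its adjusted p was below 0.05, by the quasi-likelihood test of edgeR with Benjamini-Hochberg adjustment over 9491 genes. Of the 8 genes, 2 were called at 1.5 h against control, both higher, where 3.32% of all genes tested were called (1.95% higher and 1.37% lower). At 3 h 4 were called higher and 1 lower, where 21.4% of all genes were called (13.5% higher and 7.94% lower). At 6 h 5 were called, all higher, where 30.5% of all genes were called (18.7% higher and 11.8% lower). The median log2 fold change of the 8 genes was 0.62, 1.32 and 1.47 at 1.5, 3 and 6 h, against -0.011, -0.031 and -0.025 over all genes tested. All 3 comparisons share the same control libraries.

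Lif had 53.2, 57.6 and 52.3 CPM in controls, 923, 885 and 1201 CPM at 1.5 h, 1101, 1094 and 657 CPM at 3 h, and 868, 696 and 683 CPM at 6 h. Every treated library lay above every control, and the lowest treated value was that of the 3 h library standing apart. The log2 fold change of Lif against control was 4.21 ± 0.24 (SE) at 1.5 h, with an edgeR adjusted p of 1.77e-05. It was 4.13 ± 0.24 at 3 h (adjusted p 1.1e-05) and 3.78 ± 0.24 at 6 h (adjusted p 1.34e-05, edgeR). The gene was called at all 3 times in each of the other 26 settings tried.

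**Figure D1:**
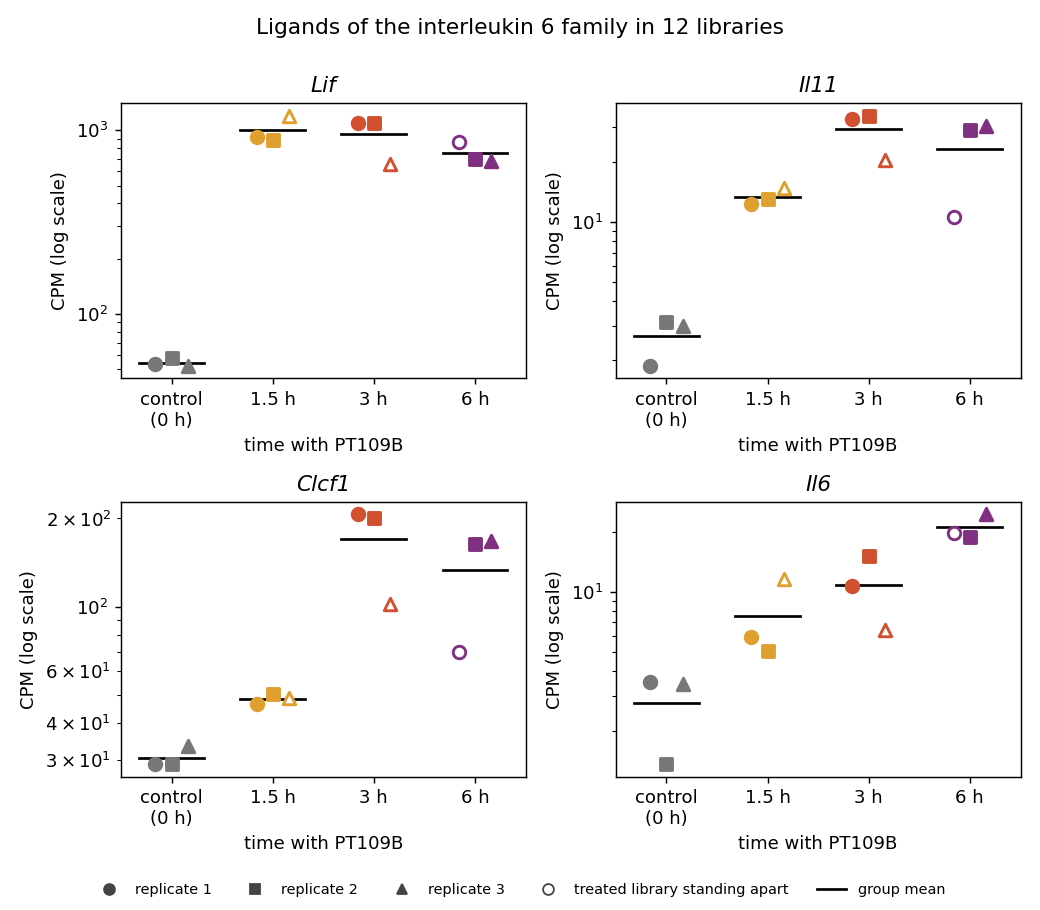
Levels of the 4 ligand genes in CPM (log scale, a separate axis for each gene) by time with PT109B, with a point for each of the 12 libraries, open for the treated libraries standing apart, and a line at the group mean. All treated Lif and Il11 values lie above the controls, and Clcf1 climbs between 1.5 and 3 h.

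The differences of Lif between treated times missed the threshold. They were, on the log2 scale, -0.08 ± 0.21 at 3 h over 1.5 h, -0.34 ± 0.21 at 6 h over 3 h and -0.42 ± 0.21 at 6 h over 1.5 h, with edgeR adjusted p-values of 0.8, 0.429 and 0.132. The 6 h libraries, at 683 to 868 CPM, all lay below the 1.5 h libraries, at 885 to 1201 CPM. Groups failed to overlap in this way for 46.9% of all genes tested in that comparison. Without the 3 h library standing apart, which enters this comparison through the shared spread, the scaling and the genes that pass the filter, the drop of Lif at 6 h over 1.5 h passed the threshold, at -0.52 ± 0.16 (edgeR adjusted p 0.027). Among the alike pairs alone, the level at 3 h (1094 and 1101 CPM) was above that at 1.5 h (885 and 923 CPM), whereas the 2 libraries standing apart had the opposite order, 657 CPM at 3 h and 1201 CPM at 1.5 h.

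Il11 encodes interleukin 11, which signals through gp130 together with its own receptor, Il11ra1. Its level was 1.88, 3.14 and 2.99 CPM in controls, 12.3, 13.1 and 14.8 CPM at 1.5 h, 33.0, 34.4 and 20.6 CPM at 3 h, and 10.6, 29.1 and 30.4 CPM at 6 h. All 9 treated libraries lay above the controls, and at 3 and 6 h the library standing apart was the lowest of its group. The log2 fold change against control was 2.32 ± 0.39 at 1.5 h, 3.45 ± 0.41 at 3 h and 3.12 ± 0.40 at 6 h, with edgeR adjusted p-values of 0.00956, 0.00035 and 0.000447. Without control replicate 1, which had the lowest control level, the 1.5 h change was 2.12 ± 0.45 and missed the threshold (edgeR adjusted p 0.0586). The level at 3 h exceeded that at 1.5 h by 1.13 ± 0.37, with an edgeR adjusted p of 0.0505, and this difference passed in 6 other settings, among them those without the 1.5 h library standing apart (1.21 ± 0.42), without the 3 h one (1.25 ± 0.38) and without the 6 h one (1.13 ± 0.23). Il11 at 6 h over 1.5 h was 0.80 ± 0.36 (edgeR adjusted p 0.103), and 1.15 ± 0.26 without the 6 h library standing apart (edgeR adjusted p 0.00665).

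Clcf1 encodes cardiotrophin-like cytokine factor 1, a ligand that acts through the CNTF receptor with LIFR and gp130. It had 29.0, 28.9 and 33.4 CPM in controls, 46.5, 50.2 and 48.7 CPM at 1.5 h, 207, 201 and 102 CPM at 3 h, and 69.8, 164 and 167 CPM at 6 h. All treated values lay above all controls, those at 1.5 h closest to them, and the libraries standing apart at 3 and 6 h had less than the other pair. Clcf1 changed by a log2 value of 0.67 ± 0.33 at 1.5 h and missed the threshold (edgeR adjusted p 0.265), and was 2.48 ± 0.34 at 3 h and 2.13 ± 0.34 at 6 h (edgeR adjusted p 0.000901 and 0.00129). In a fit of the 1.5 h and control libraries alone the 1.5 h change was 0.69 ± 0.10, with an edgeR adjusted p of 0.0285.

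The later rise of Clcf1 was tested directly. Its level was higher at 3 h than at 1.5 h by 1.81 ± 0.33 on the log2 scale and higher at 6 h than at 1.5 h by 1.46 ± 0.33, with edgeR adjusted p-values of 0.00814 and 0.00708. A fit of the 3 h and 1.5 h libraries alone left that difference at 3 h at 1.81 ± 0.28 with an edgeR adjusted p of 0.0504.

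Il6 encodes interleukin 6, a cytokine of inflammation that microglia and astrocytes can both release. Its counts in controls were low, at 19 to 41 reads per library. Its level was 3.51, 1.36 and 3.43 CPM in controls, 5.94, 5.02 and 11.6 CPM at 1.5 h, 10.7, 15.1 and 6.41 CPM at 3 h, and 19.8, 18.8 and 24.5 CPM at 6 h. Treated and control values did not overlap at any time, and the 6 h libraries were higher than all others. The log2 fold change was 1.44 ± 0.45 at 1.5 h (edgeR adjusted p 0.114), 1.96 ± 0.45 at 3 h (adjusted p 0.0142) and 2.93 ± 0.46 at 6 h (adjusted p 0.00122). DESeq2 called the 1.5 h change as well, at 1.48 ± 0.47 (adjusted p 0.0241), and without replicate 2 at 3 h the 3 h change was 1.59 ± 0.48 (edgeR adjusted p 0.0671). Il6 at 6 h was above 1.5 h by 1.49 ± 0.43 (edgeR adjusted p 0.0216), and this difference missed the threshold without replicate 1 or replicate 2 at 1.5 h (1.34 ± 0.50 and 1.26 ± 0.48) and without replicate 2 or replicate 3 at 6 h (1.46 ± 0.50 and 1.26 ± 0.50). The 2 libraries at 1.5 h with the low microglia marker sums had 5.94 and 5.02 CPM of Il6, and replicate 3 had 11.6 CPM.

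The ligands can be set against each other only per transcript length, for which the deposited FPKM values were used. In controls Clcf1 averaged 11.2 ± 0.767 FPKM (SD, n = 3) and Lif 10.9 ± 0.603 FPKM, with overlapping ranges, and Il11 (1.89 ± 0.481 FPKM) and Il6 (1.65 ± 0.62 FPKM) overlapped as well. The summed FPKM of the 4 ligands was 24.7 to 26.7 in controls, 198 to 261 at 1.5 h, 172 to 254 at 3 h and 190 to 210 at 6 h. Lif made up 39.2% to 45.2% of that sum in controls, 85.8% to 87.1% at 1.5 h, 67.7% to 70.9% at 3 h and 58.8% to 79.2% at 6 h. The share of Clcf1 was 42.5% to 45.4% in controls, 6.72% to 8.83% at 1.5 h, 20.1% to 23.4% at 3 h and 11.9% to 26.6% at 6 h. At 6 h the library standing apart had the highest Lif share, 79.2%, and the lowest Clcf1 share, 11.9%. FPKM carries no scaling for the composition of the libraries, so shares within a library are given and sums between libraries are only a description.

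**Figure D2:**
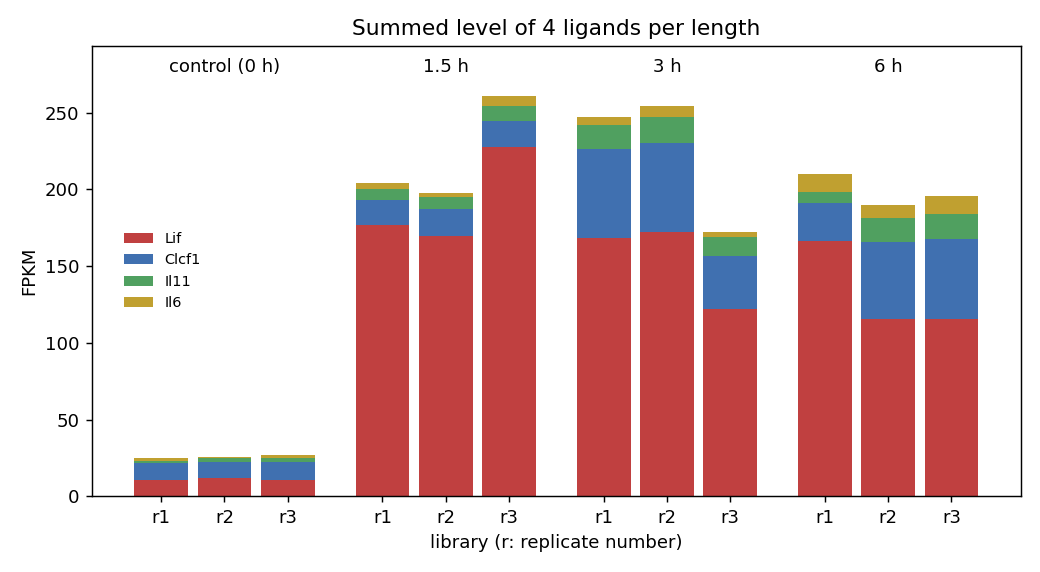
Stacked FPKM of Lif, Clcf1, Il11 and Il6 in each of the 12 libraries (r1 to r3 are replicates 1 to 3), grouped by time with PT109B. Lif makes up 85.8% to 87.1% of the column at 1.5 h, and the Clcf1 segment is larger at 3 h than at 1.5 h in each library.

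By FPKM, the order of the 8 genes in controls was Il6st (59.2 ± 3.5), Osmr (31.0 ± 2.57), Socs3 (21.7 ± 0.901), Clcf1, Lif, Lifr (2.65 ± 0.125), Il11 and Il6. Lif was thus the fifth in controls, with Clcf1 as the only neighbour in that order whose range it overlapped. Under PT109B Lif was the highest of the 8 genes at all 3 times, at 191 ± 31.3, 154 ± 27.7 and 132 ± 29.4 FPKM (SD, n = 3 each) at 1.5, 3 and 6 h. Il6st came second each time, at 70.2 ± 9.23, 66.8 ± 3.06 and 60.1 ± 2.2 FPKM, and its range did not overlap that of Lif. Clcf1 moved to the third place at 3 h (50.3 ± 13.6 FPKM) and 6 h (42.4 ± 15.1 FPKM), where its range overlapped that of the gene next below. Lifr was the lowest of the 8 at all 3 treated times, with 2.83 ± 0.718, 1.32 ± 0.354 and 4.10 ± 0.891 FPKM, overlapping Il6 at 1.5 h only.

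Lifr encodes the receptor subunit that Lif, Clcf1 and related ligands share, and it was the only receptor gene of the 8 that was called, lower at 3 h and higher at 6 h. Its level was 11.7, 12.3 and 11.3 CPM in controls, 14.1, 16.0 and 9.46 CPM at 1.5 h, 6.98, 5.94 and 8.24 CPM at 3 h, and 23.8, 20 and 18.1 CPM at 6 h. The 3 h libraries were all below the controls and the 6 h libraries all above them, while the 1.5 h libraries lay on both sides. The log2 fold change against control was 0.17 ± 0.22 at 1.5 h, -0.73 ± 0.22 at 3 h and 0.81 ± 0.22 at 6 h, with edgeR adjusted p-values of 0.681, 0.0391 and 0.0185. Both calls against control rest on small margins. Leaving out any control library ended the 3 h call (-0.76 to -0.70, edgeR adjusted p 0.083 to 0.112), as did leaving out replicate 1 or 2 at 3 h (-0.75 and -0.66, adjusted p 0.103 and 0.125) or replicate 1 at 1.5 h (-0.73, adjusted p 0.0553). Leaving out any control library, or replicate 2 at 6 h, ended the 6 h call (0.77 to 0.84, edgeR adjusted p 0.0515 to 0.0626).

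The direct test between times gave a larger difference for Lifr, a log2 change of 1.55 ± 0.22 at 6 h over 3 h (edgeR adjusted p 0.00926), in a comparison in which 4.05% of all genes were called. It was the only one of the 8 genes called there. Without replicate 1 or replicate 2 at 3 h the change was 1.49 ± 0.27 or 1.40 ± 0.25, with edgeR adjusted p-values of 0.0513 and 0.0507. Lifr at 3 h was below 1.5 h by -0.90 ± 0.22 (edgeR adjusted p 0.0226), and this call was lost without replicate 1 or 2 at 1.5 h (-0.85 and -0.74) or replicate 1 or 2 at 3 h (-0.93 and -0.84). Lifr at 6 h was above 1.5 h by 0.64 ± 0.22 (edgeR adjusted p 0.0393), and that call was lost in 20 of the 26 other settings, among them 10 of the 12 fits that left out a library (0.46 to 0.69, edgeR adjusted p 0.0542 to 0.114).

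**Figure D3:**
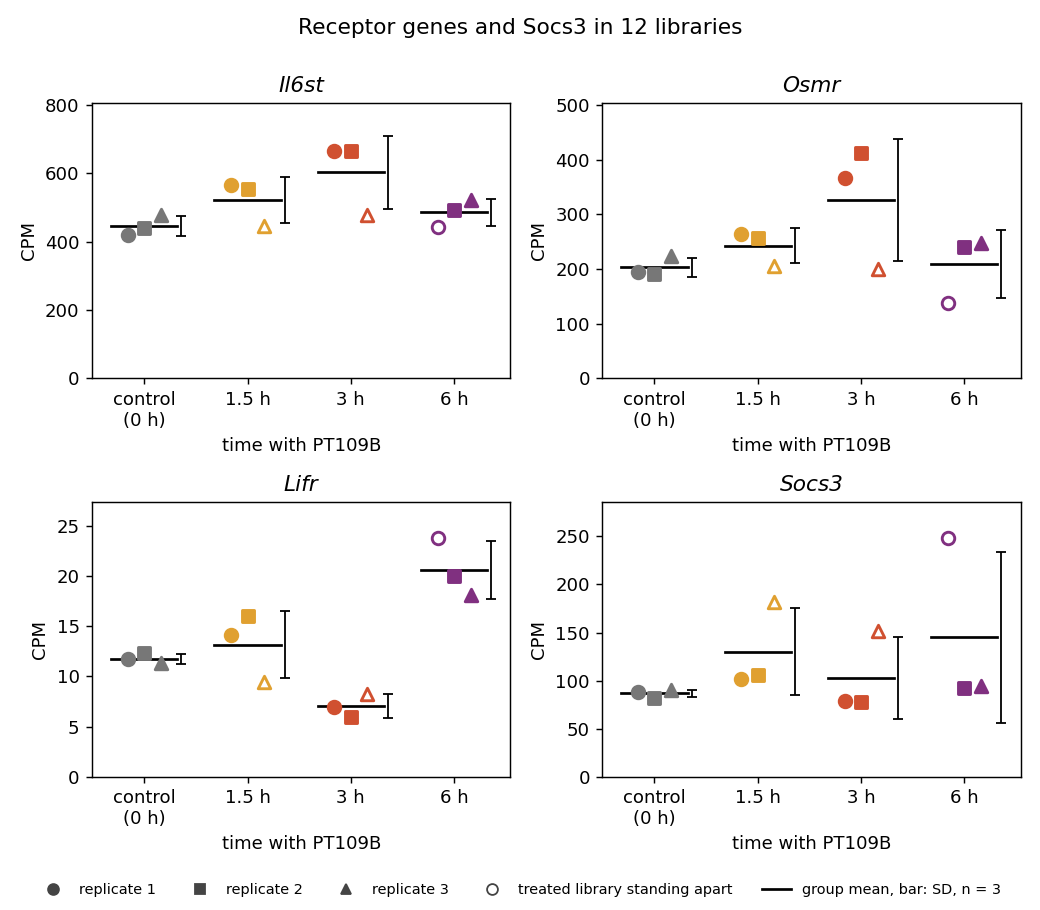
Levels of Il6st, Osmr, Lifr and Socs3 in CPM by time with PT109B, with a point for each of the 12 libraries, open for the treated libraries standing apart, a line at the group mean and a bar for its SD (n = 3). Lifr is lowest at 3 h and highest at 6 h, and the open Socs3 points lie above the filled ones at each time.

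Il6st, the gene of the shared subunit gp130, had 418, 440 and 478 CPM in controls, 566, 553 and 444 CPM at 1.5 h, 664, 664 and 478 CPM at 3 h, and 443, 491 and 521 CPM at 6 h. The groups overlapped at every time, since the library standing apart lay within the control range. Its log2 fold change was 0.23 ± 0.16, 0.43 ± 0.16 and 0.12 ± 0.16 at 1.5, 3 and 6 h, with edgeR adjusted p-values of 0.421, 0.0734 and 0.572. The 3 h change passed the threshold in DESeq2 (0.45 ± 0.17, adjusted p 0.0313), without the 1.5 h library standing apart (0.44 ± 0.14, edgeR adjusted p 0.0439) and without the 3 h one (0.51 ± 0.13, edgeR adjusted p 0.0133).

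Osmr encodes the receptor subunit through which oncostatin M, another cytokine of the family, signals with gp130. It had 195, 191 and 223 CPM in controls, 264, 257 and 206 CPM at 1.5 h, 366, 412 and 199 CPM at 3 h, and 137, 241 and 248 CPM at 6 h. At each time 2 libraries lay above all controls, and the one standing apart lay within the control range or, at 6 h, below it. Osmr changed by a log2 value of 0.25 ± 0.28, 0.68 ± 0.28 and 0.04 ± 0.28 at 1.5, 3 and 6 h (edgeR adjusted p 0.612, 0.0996 and 0.925). Without the 3 h library standing apart Osmr passed the threshold at 3 h against control (0.88 ± 0.22, edgeR adjusted p 0.0137) and at 6 h against 3 h (-0.91 ± 0.22, adjusted p 0.0335).

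Socs3, the feedback inhibitor of gp130 signalling, had 88.1, 82.4 and 89.9 CPM in controls, 102, 106 and 182 CPM at 1.5 h, 78.7, 77.5 and 152 CPM at 3 h, and 248, 92.2 and 94.9 CPM at 6 h. At 1.5 and 6 h all Socs3 values lay above all controls, as groups failed to overlap for 28.1% and 55.7% of all genes tested. The libraries standing apart had the highest value at each time, and the other pair at 3 h lay below the controls. The changes were 0.58 ± 0.41, 0.24 ± 0.41 and 0.74 ± 0.41 on the log2 scale at 1.5, 3 and 6 h (edgeR adjusted p 0.42, 0.68 and 0.185). Without the 3 h library standing apart the 3 h value was -0.21 ± 0.44 (edgeR adjusted p 0.712). Without the 6 h one the 6 h value was 0.11, the lowest of the fits that left out 1 library.

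**Figure D4:**
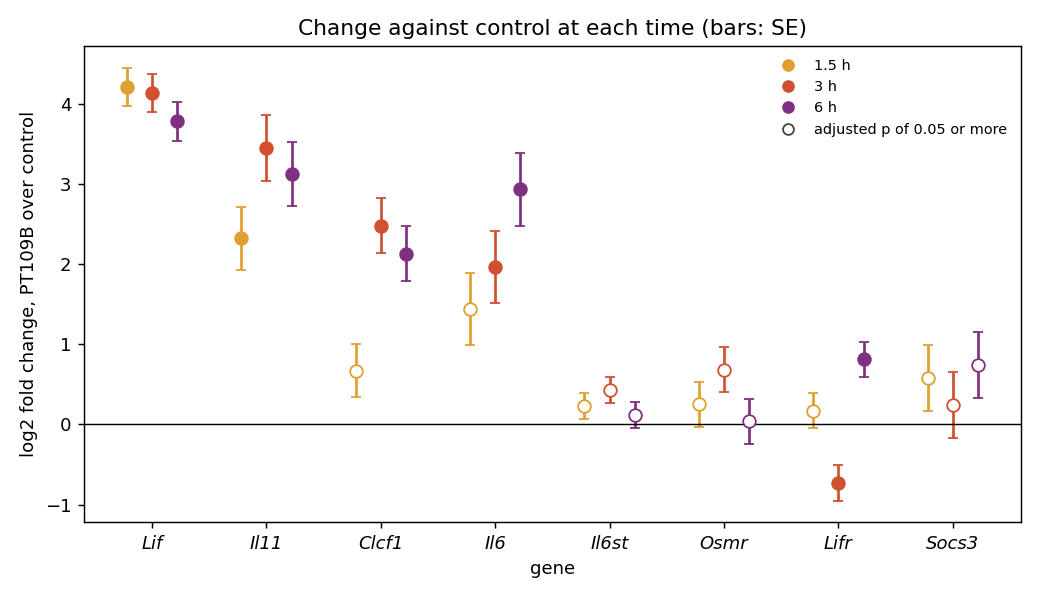
Log2 fold change of the 8 genes, PT109B over control, at 1.5, 3 and 6 h, with SE bars from the fit to 12 libraries. Filled points have an adjusted p below 0.05, which all Lif and Il11 points have and no Il6st, Osmr or Socs3 point has.

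Socs3 and Osmr moved in opposite directions among libraries of a time. The library standing apart had 1.75, 1.94 and 2.65 times the Socs3 of the other pair at 1.5, 3 and 6 h, and 0.793, 0.51 and 0.561 times the Osmr. Il6st was lower there too, at 0.794, 0.72 and 0.876 times. Clcf1 was level at 1.5 h (1.01 times) and lower at 3 and 6 h (0.499 and 0.422 times). Lif did not follow the split in 1 direction, with 1.33, 0.598 and 1.26 times the mean of the other pair. Set against controls, Lif was 22.1, 12.1 and 16.0 times the control mean in the libraries standing apart and 16.6, 20.2 and 12.7 times in the other pairs, so its rise was present in both. These ratios are descriptions, since the libraries were singled out by their profiles. In the alike pairs the microglia markers were lower only at 1.5 h, while the fibroblast and meningeal markers were higher at all 3 times and the mitosis genes were lower at 3 and 6 h.

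**Figure D5:**
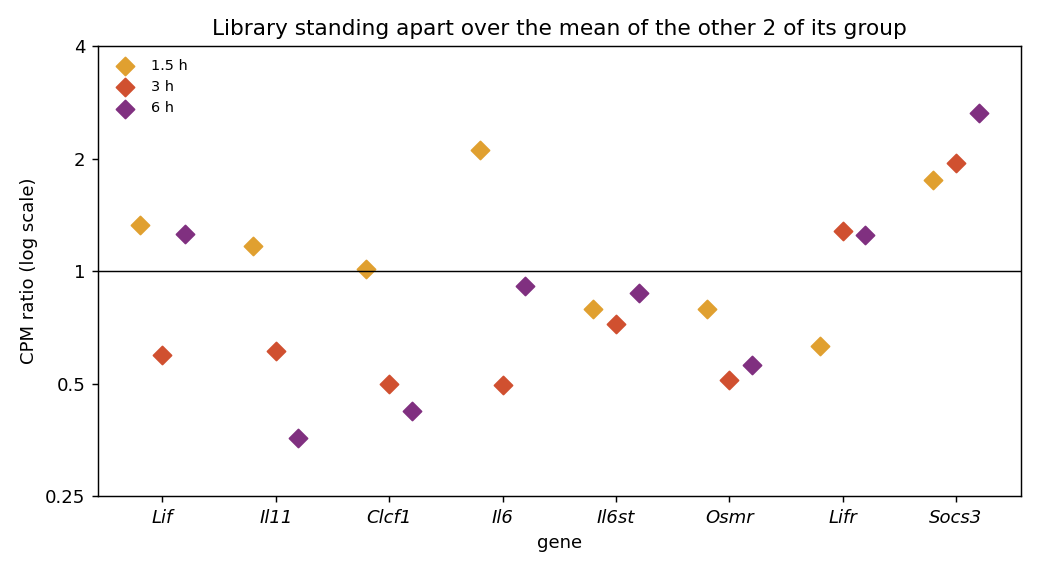
CPM of the library standing apart divided by the mean CPM of the other 2 libraries of its group (log scale), for the 8 genes at 1.5, 3 and 6 h, with a line at 1. Socs3 lies above 1 and Osmr and Il6st below 1 at all 3 times, while Lif lies on both sides.

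Without the 3 libraries standing apart, which leaves 2 libraries per treated group, the 8 genes gave 7 calls at 1.5 h, 8 at 3 h and 5 at 6 h against control. The background rose with them, to 59.2%, 70.9% and 75.1% of all genes tested. The comparisons of 3 h with 1.5 h, 6 h with 3 h and 6 h with 1.5 h gave 7, 6 and 6 calls, against 69.9%, 34.1% and 76.0%. Removing libraries because they differ narrows the spread, so the p-values of that fit are too small. In it the log2 changes of Lif were 4.05 ± 0.08, 4.27 ± 0.08 and 3.58 ± 0.08, and Lif at 6 h was below 3 h by -0.70 ± 0.08.

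Between the treated times the genes called were Clcf1, Lifr and Il6, and an uncalled gene may still have changed. At 3 h against 1.5 h Clcf1 was called higher and Lifr lower, where 20.3% of all genes were called (12.1% higher and 8.23% lower). At 6 h against 3 h only Lifr was called, higher, where 2.33% of all genes were called higher and 1.72% lower. At 6 h against 1.5 h Il6, Clcf1 and Lifr were called higher, where 37.6% of all genes were called (20.5% higher and 17.1% lower), so that 3 of 8 was near the background. Groups did not overlap for 5, 5 and 6 of the 8 genes at 1.5, 3 and 6 h against control, where 28.1%, 47.6% and 55.7% of all genes tested did not. Between times they did not overlap for 3, 2 and 4 of the 8, where 34.3%, 24.3% and 46.9% of all genes did not (3 h against 1.5 h, 6 h against 3 h and 6 h against 1.5 h).

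Among the other ligands of the family, Cntf, the gene of ciliary neurotrophic factor, fell at 6 h, with 34.7, 30.3 and 34.1 CPM against 57.2, 49.6 and 42.2 CPM in controls (log2 change -0.59 ± 0.14, edgeR adjusted p 0.0114). At 3 h Cntf averaged 50.8 ± 7.1 CPM against 49.7 ± 7.51 CPM in controls (SD, n = 3 each). Ebi3, a subunit of interleukin 27, was not called at any time, and its 5.13 and 5.10 CPM in replicates 1 and 2 at 1.5 h fell in the libraries with the low microglia markers, against 37.8 to 51.0 CPM in controls.

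Of the other receptors, 3 of 6 listed genes were in the table. Il11ra1, the receptor of interleukin 11, fell at 6 h, with 34.2, 30.1 and 37.5 CPM against 44.8, 40.6 and 45.7 CPM in controls (log2 change -0.36 ± 0.12, edgeR adjusted p 0.0429). Il6r, the receptor of interleukin 6, was not called against control at any time. It had 65.0, 75.1 and 57.6 CPM at 3 h, against 46.4, 39.1 and 51.7 CPM in controls (log2 change 0.53 ± 0.20, edgeR adjusted p 0.0813), and 34.8, 34.0 and 28.3 CPM at 6 h (-0.50 ± 0.20, edgeR adjusted p 0.0813).

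Of 13 tested kinases, STAT factors and adaptors of the pathway, 1 was called higher at 3 h, where 13.5% of all genes tested were. At 6 h 1 was called lower, where 11.8% were, so against control the list was not above the background. At 6 h against 1.5 h 5 of the 13 were called higher and 1 lower, where 20.5% and 17.1% of all genes were. At 3 h against 1.5 h 2 were called higher, where 12.1% were, and at 6 h against 3 h 0 were called. At 1.5 h edgeR called 0 of them, with 3 at an unadjusted p under 0.05, while DESeq2 called 1 and limma on log2 FPKM called 0. The median log2 change was -0.19, -0.09 and 0.05 at 1.5, 3 and 6 h. Jak1, the kinase most closely tied to gp130, rose at 3 h, with 1169, 1165 and 795 CPM against 659, 634 and 741 CPM in controls (log2 change 0.62 ± 0.20, edgeR adjusted p 0.0491). Its highest values were again in the alike pair. Jak2, another kinase of the family, fell at 6 h, with 83.9, 64.5 and 59.1 CPM against 100, 90.0 and 99.6 CPM in controls (-0.48 ± 0.16, edgeR adjusted p 0.0426). Shc1, an adaptor, had a log2 change of 0.37 ± 0.14 at 3 h (edgeR adjusted p 0.0823).

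Among 12 tested inhibitors of the pathway other than Socs3, 1 was called higher and 0 lower at 1.5 h, 3 and 2 at 3 h, and 2 and 2 at 6 h. Among all genes tested the shares called higher and lower were 1.95% and 1.37%, 13.5% and 7.94%, and 18.7% and 11.8%, so that the counts at 6 h were near the background. Socs5, a member of the same protein family as Socs3 that is best known for damping receptors other than gp130, was called at all 3 times. It had 117, 112 and 102 CPM in controls, 214, 220 and 136 CPM at 1.5 h, 282, 302 and 237 CPM at 3 h, and 150, 196 and 191 CPM at 6 h, with no overlap with controls. Its log2 fold change was 0.79 ± 0.19, 1.31 ± 0.19 and 0.70 ± 0.19 (edgeR adjusted p 0.0484, 0.0011 and 0.0183). In Socs5 the library standing apart was the lowest of its group at each time, the reverse of its order in Socs3.

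Cish, a further member of that inhibitor family, averaged 5.56 ± 0.955 CPM at 3 h and 7.65 ± 0.617 CPM at 6 h, against 2.59 ± 0.909 CPM in controls (SD, n = 3 each). It was not called at 1.5 h, although its 6.34, 4.23 and 8.05 CPM there already lay above all controls (1.58 to 3.36 CPM). Its log2 change was 1.09 ± 0.33 at 3 h and 1.55 ± 0.34 at 6 h (edgeR adjusted p 0.0408 and 0.00637). Pias1 and Pias2, which encode SUMO ligases that bind STAT proteins, were called lower at 3 and 6 h. Their changes were -0.55 ± 0.16 and -0.39 ± 0.11 at 3 h and -0.50 ± 0.16 and -0.44 ± 0.11 at 6 h (edgeR adjusted p 0.0115 to 0.0402). Pias1 was below all controls (52.7 to 63.8 CPM) at 1.5 h too, at 46.9, 35.0 and 48.5 CPM, without a call. Ptpn1, a phosphatase gene, was called higher at 3 h, with 224, 232 and 239 CPM against 165, 165 and 188 CPM in controls. It was not called at 1.5 h (-0.27 ± 0.13) or 6 h (0.26 ± 0.13). Ptpn6, a phosphatase gene of blood-derived cells, had 20.5 and 19.8 CPM in the 1.5 h libraries with low microglia markers, against 185 to 210 CPM in controls, and was not called at 3 h.

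Of 28 tested genes known to respond to STAT3, a list that also holds Osmr, Il6st and Socs3, 4 were called higher and 1 lower at 1.5 h, 11 and 1 at 3 h, and 10 and 3 at 6 h. The shares called higher among all genes tested were 1.95%, 13.5% and 18.7%, and the shares called lower were 1.37%, 7.94% and 11.8%, so that the 3 of 28 lower at 6 h were near the background. The list's median log2 change was 0.26, 0.59 and 0.36. Many of its members also respond to other signals, and nothing particular to STAT3 can be read from the counts.

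The early response gene Fos had 146, 145 and 71.9 CPM at 1.5 h, against 13.1, 12 and 14.5 CPM in controls (log2 change 3.20 ± 0.28, edgeR adjusted p 0.00011). Myc, a transcription factor of cell growth, was higher at all 3 times, by 1.09 ± 0.11, 1.04 ± 0.11 and 1.35 ± 0.11 (edgeR adjusted p 0.000309, 0.000159 and 3.43e-05). Irf1, an interferon-responsive transcription factor, rose at 1.5 h by 0.89 ± 0.16 (edgeR adjusted p 0.0151).

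Cebpd, a transcription factor of the acute phase response, went the other way at 1.5 h, with 81.0, 81.2 and 128 CPM against 247, 242 and 276 CPM in controls (-1.40 ± 0.22, edgeR adjusted p 0.00644). It stayed below all controls at 3 h (79.3, 87.1 and 126 CPM) and at 6 h (176, 140 and 133 CPM). At 3 h the interleukin 1 receptor gene Il1r1 (1.23 ± 0.13), the hypoxia factor gene Hif1a (1.08 ± 0.12) and the adhesion molecule gene Icam1 (0.95 ± 0.15) rose, with edgeR adjusted p-values of 0.000155, 0.000223 and 0.00196. At 6 h Hif1a was still higher (1.09 ± 0.12, edgeR adjusted p 0.000193). Cd44, the hyaluronan receptor gene (0.91 ± 0.12), and Bcl2l1, a survival gene (0.63 ± 0.10), were called at 6 h as well (edgeR adjusted p 0.000582 and 0.00136). Both already lay above all controls at 3 h, Cd44 at 1688, 1670 and 1587 CPM and Bcl2l1 at 238, 238 and 262 CPM. At 1.5 h Cd44 was above all controls as well, at 1216, 1205 and 1166 CPM, and Bcl2l1 below them, at 153, 147 and 156 CPM. Genes were named at a time by the smallest adjusted p, so these times are not an order of onset. Vim, the gene of vimentin, was not called, with log2 changes of 0.52 ± 0.29, 0.36 ± 0.29 and 0.12 ± 0.29.

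The genes whose log2 change from the control mean lay closest to that of Lif in each of the 9 treated libraries were sought among 7290 genes. These had a mean of at least 10 CPM over the 12 libraries, so that genes low in controls could enter through their treated values. The family genes, which passed the same limit, were placed for reference whatever their rank. Likeness was the mean absolute difference over the 9 libraries, which share their controls. The closest was Dusp5, a phosphatase of ERK kinases, at a mean difference of 0.635, followed by Xirp1 (0.728), Klf2 (0.838), Atf3 (0.896), Egr2 (0.936), Egr1 (0.978), Gdf15 (1.05) and RGD1564664 (1.08). Klf2, Atf3, Egr1 and Egr2 encode transcription factors, and Gdf15 a secreted stress cytokine. In controls Xirp1 and Egr2 averaged only 3.49 CPM each, Klf2 7.24 CPM and RGD1564664 9.71 CPM, and Il6 and Il11 2.77 and 2.67 CPM. Dusp5, Atf3, Egr1 and Gdf15 averaged 14.4, 22.2, 33.7 and 66.6 CPM, and Lif 54.4 CPM. Dusp5 changed by 3.34, 3.42 and 3.61 at 1.5 h, 5.21, 5.29 and 3.86 at 3 h and 3.43, 4.07 and 4.10 at 6 h, against 4.08, 4.02 and 4.46, then 4.34, 4.33 and 3.59, then 3.99, 3.67 and 3.65 for Lif. Egr1 had dropped to changes of 2.55 to 2.89 at 6 h, where Lif was still at 3.65 to 3.99. Of the family, Il11 was 13th on this measure (1.16), Il6 41st (1.93) and Clcf1 69th (2.31), while Socs3, Osmr, Il6st and Lifr lay at places from 1333 to 3173.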

How the data were processed

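The 12 RNA-seq libraries fell into 4 groups of 3 by their labels. Per the file headers, the authors deposited 1 table that holds an estimated count and FPKM for each gene in each library. Per the submitters' processing notes, StringTie 2.2.1 was used. Which aligner, genome build or annotation was used is not given in the sources used here. Since 9.486% of the values in the count columns were not whole numbers (1343 genes), counts were rounded before testing. The table holds 9721 genes, part of a rat genome's, so scaling and adjusted p-values refer to this set. Total counts were 9368972 to 12498050 per library, and deposited FPKM served for levels between genes and for alternatives.

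In R 4.3.3, edgeR 4.0.16 filtered genes with filterByExpr (230 removed), scaled 9491 genes by TMM and fitted 1 robust quasi-likelihood model with group as the only term, with a prior count of 0.125. The same fit gave all 6 comparisons, and genes were called at a Benjamini-Hochberg adjusted p under 0.05. SE is the size of the log2 fold change over the square root of F. CPM are on TMM-scaled library sizes. The script was tested on simulated data. Libraries of a pair that looked alike still differed beyond sampling noise (chi-square of 3.97 to 7.38 per gene), so none was treated as deposited more than once.

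The members and gene lists were chosen with earlier results of these data known. Named genes were all family genes, up to 4 called and 1 uncalled member per list and comparison with control, and the 8 genes most like Lif, except that 1 listed gene is not reported here. Motifs were searched in RefSeq promoter windows of GRCr8, by symbol, with 6 of the 8 genes matched, of which Lifr, Il6st and Socs3 have windows over 1000 bases from the annotated gene start. Alternatives were RLE, upper quartile and library size scaling, depth from count and FPKM, other filters, DESeq2 1.42.0, limma 3.58.1 on log2 FPKM, fits of 2 groups, a non-robust fit, a replicate block, a fold threshold of 1.2, each library left out and, chosen after seeing the data, the 3 libraries standing apart left out.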

Additional observations from a re-analysis of the deposited data

Results flagged for a closer look

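In 6 cases the effect of PT109B on a family gene differed between times by a direct test between treated groups (edgeR, adjusted over all genes tested). Clcf1 was higher at 3 h than at 1.5 h (log2 1.81, adjusted p 0.00814) and higher at 6 h than at 1.5 h (1.46, adjusted p 0.00708), in 3 of 3 libraries each time. Il6 was higher at 6 h than at 1.5 h (1.49, adjusted p 0.0216). Lifr was lower at 3 h than at 1.5 h (-0.90, adjusted p 0.0226), higher at 6 h than at 3 h (1.55, adjusted p 0.00926) and higher at 6 h than at 1.5 h (0.64, adjusted p 0.0393). This last call was lost in 20 of the 26 other settings. Of the 8 genes, 2, 1 and 3 were called at 3 h against 1.5 h, 6 h against 3 h and 6 h against 1.5 h, where 20.3%, 4.05% and 37.6% of all genes were, so that the first and last of these counts are near the background. The groups did not overlap in these 6 cases, as for 34.3%, 24.3% and 46.9% of all genes at 3 h against 1.5 h, 6 h against 3 h and 6 h against 1.5 h.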

How the results depend on the processing

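Lif, Il11 at 3 and 6 h, Clcf1 at 3 and 6 h and Il6 at 6 h kept direction and call against control in all 26 other settings tried. Scaling by library size, by depth from count and FPKM, or limma on log2 FPKM with a pseudocount of 0.1 or 1 made Lif at 6 h against 1.5 h pass the threshold, at -0.55, -0.53, -0.54 and -0.54. These scalings moved the median of all genes at 3 h against control to -0.34, -0.311, -0.316 and -0.244, and at 6 h to -0.241, -0.215, -0.227 and -0.175. Signs of uncalled genes turned in them. Osmr at 6 h against control was -0.20, -0.18, -0.20 and -0.20, and -0.04 with upper quartile scaling or no filter. Il6st at 3 h against 1.5 h was -0.05, -0.02, -0.06 and -0.06, and at 6 h against control -0.10 and -0.08 with library size and depth. Socs3 was -0.02 (library size), -0.12 and -0.11 (limma) at 3 h against control, and -0.08 and -0.07 (limma) at 6 h against 1.5 h. Lifr at 6 h missed the threshold in those 4 settings.

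Fits of only the 2 groups compared called 0 of the 8 genes at 3 h against 1.5 h and 0 at 6 h against 3 h, where only 76 of 9240 and 7 of 9151 genes of the table were called. A fold threshold of 1.2 called 1 at 3 h against 1.5 h, with 735 of 9491 genes of the table. Without the 3 libraries standing apart, 7, 8 and 5 genes were called at 1.5, 3 and 6 h against control, 7 at 3 h against 1.5 h, 6 at 6 h against 3 h and 6 at 6 h against 1.5 h. Lif was then 0.22 at 3 h against 1.5 h, -0.70 at 6 h against 3 h and -0.48 at 6 h against 1.5 h. Socs3 was 0.26, -0.21 and 0.02 at 1.5, 3 and 6 h against control. Between times Socs3 was -0.47 at 3 h against 1.5 h, 0.24 at 6 h against 3 h and -0.24 at 6 h against 1.5 h. Why the settings differ was not tested. The fits of 2 groups and the fit without the libraries standing apart hold fewer libraries, and the latter also has a smaller spread.

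Leaving out each library gave 1 to 2 calls at 1.5 h and 3 to 7 at 3 h against control, 1 to 3 at 3 h against 1.5 h, 0 to 2 at 6 h against 3 h and 1 to 4 at 6 h against 1.5 h. Calls over the whole table moved too, from 115 to 2871, 849 to 3697, 422 to 4051, 41 to 788 and 2257 to 5002 genes in these comparisons, so the ranges of the 8 genes are not particular to them. In these fits Lif ranged from -0.26 to 0.07 at 3 h against 1.5 h and from -0.54 to -0.27 at 6 h against 1.5 h. Osmr ranged from -0.18 to 0.27 at 6 h against control and from -0.45 to 0.01 at 6 h against 1.5 h, and Il6st from -0.00089 to 0.18 at 6 h against control. Socs3 ranged from -0.21 to 0.38 at 3 h against control, from -0.13 to 0.89 at 6 h against 3 h and from -0.47 to 0.48 at 6 h against 1.5 h. Il11 ranged from -0.59 to 0.02 at 6 h against 3 h.

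Over all groups, same-numbered libraries did not consistently deviate together (r of -0.657 to 0.599 over 18 pairs, 8 of them over 0.1), so the numbers were not taken as a pairing. All 3 pairs were over 0.1 for 1.5 h with control (0.2 to 0.451) and for 3 h with 1.5 h (0.166 to 0.224), comparisons in which the block left the count of called family genes at 2 each. With the replicate block Lifr missed the threshold at 3 h against control (-0.73, adjusted p 0.0637) and at 6 h against 1.5 h (0.65, adjusted p 0.0563), and 201 genes of the whole table were called at 1.5 h against control and 1243 at 3 h against 1.5 h with the block, against 315 and 1929 without it. Il6 and Il11 are limited by depth in controls, at 19 to 44 counts per library.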
